A study of Homo sapiens with 32 samples.

Results

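A set of 799 of 92108 H3K27ac regions lost their broad peaks with retinoic acid (RA), with or without palbociclib (PB), and they are called lost regions here. They were chosen by the deposited peak lists alone. A lost region overlapped, by at least 1 base, a broad peak in at least 3 of 4 DMSO and at least 3 of 4 PB libraries, and in at most 1 of 4 RA and at most 1 of 4 PB+RA libraries. The rule was therefore set on measured values, and the differences between the RA-treated groups and DMSO or PB are given below as a description, with no test.

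Acetylation of histone H3 at lysine 27 (H3K27ac) was measured by chromatin immunoprecipitation followed by sequencing (ChIP-seq). The cells were SK-N-BE(2)C, an established MYCN-amplified neuroblastoma cell line of the adrenergic (ADRN), sympathetic neuron-like type. This line alone was used, and its cultures were treated over 5 days with DMSO (the solvent control), with 1 uM PB, with RA or with both drugs (PB+RA). Each of the 4 groups held 4 ChIP libraries and 4 input libraries, and biological replicates were different passages of the line. ADRN identity was checked at the start sites of 10 marker genes. The start sites of 9 of them, including HAND2, GATA3 and DBH, lay in a region with a peak in all 16 libraries, and that of MYCN lay in no region of the table. None of 5 endothelial markers had a region at the start site. Of 6 immune markers 4 had none, while the start site of CD14 had a peak in all 16 libraries and that of SPI1 in 3. Of 6 mesenchymal markers, SNAI2, FOSL2 and VIM had a start-site peak in all 16 libraries, PRRX2 in 11 and FOSL1 in 8, and PRRX1 had no region there.

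H3K27ac is deposited by the acetyltransferases p300 and CBP on nucleosomes beside active enhancers and promoters, and is lost when the factors that recruit them leave or when deacetylases prevail. Enhancers often lie far from the gene they act on, in introns or in gene-poor stretches, and are bound by factors that define a cell type. In ADRN neuroblastoma these include HAND2, GATA3 and ISL1, which bind one another's enhancers in a core regulatory circuitry (CRC). RA acts through nuclear receptors that bind response elements and exchange co-repressors for co-activators.

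To show what such regions look like in sequence, 300-base windows are printed for 5 lost regions, taken from the 6 windows with the most matches to 14 short motifs among the strongest losses and the CRC genes that were eligible for printing. Each window is centred on the part of the region covered by peaks of the most libraries. Letters are from GRCh37 (hg19), forward strand, and capitals mark a motif match on either strand. The name is the nearest protein-coding gene.

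ISL1, chr5:50703469-50703768: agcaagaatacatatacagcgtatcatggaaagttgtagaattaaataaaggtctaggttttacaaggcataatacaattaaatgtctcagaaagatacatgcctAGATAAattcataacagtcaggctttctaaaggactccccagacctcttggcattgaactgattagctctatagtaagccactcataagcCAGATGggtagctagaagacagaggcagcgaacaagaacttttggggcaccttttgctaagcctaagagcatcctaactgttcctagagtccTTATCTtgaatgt

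IGSF21, chr1:18464788-18465087: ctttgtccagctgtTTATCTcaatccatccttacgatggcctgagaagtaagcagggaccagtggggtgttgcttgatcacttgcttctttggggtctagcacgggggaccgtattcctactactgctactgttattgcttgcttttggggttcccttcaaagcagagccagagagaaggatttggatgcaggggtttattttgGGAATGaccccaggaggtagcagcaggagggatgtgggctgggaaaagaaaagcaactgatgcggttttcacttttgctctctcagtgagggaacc

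ZC3H12A, chr1:37853049-37853348: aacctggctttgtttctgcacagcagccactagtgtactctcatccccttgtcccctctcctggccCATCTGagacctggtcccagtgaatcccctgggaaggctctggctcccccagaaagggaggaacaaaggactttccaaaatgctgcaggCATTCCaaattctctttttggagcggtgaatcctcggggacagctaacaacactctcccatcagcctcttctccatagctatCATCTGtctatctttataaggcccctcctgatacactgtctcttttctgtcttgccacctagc

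SERTAD2, chr2:64856621-64856920: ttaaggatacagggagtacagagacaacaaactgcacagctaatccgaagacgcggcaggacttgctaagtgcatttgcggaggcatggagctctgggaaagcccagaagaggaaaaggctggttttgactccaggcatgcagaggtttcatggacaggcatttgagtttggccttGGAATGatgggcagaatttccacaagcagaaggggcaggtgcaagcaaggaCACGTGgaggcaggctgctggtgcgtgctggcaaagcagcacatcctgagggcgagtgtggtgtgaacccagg

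SATB1, chr3:18393504-18393803: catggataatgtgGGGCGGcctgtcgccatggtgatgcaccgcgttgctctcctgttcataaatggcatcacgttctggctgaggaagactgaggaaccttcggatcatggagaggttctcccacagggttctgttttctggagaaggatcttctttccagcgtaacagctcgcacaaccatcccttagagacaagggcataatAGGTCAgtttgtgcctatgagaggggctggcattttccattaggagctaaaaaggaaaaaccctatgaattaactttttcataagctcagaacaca

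The ISL1 window, within an intergenic region whose edge lay 22845 bases from the nearest ISL1 start site, held 3 matches, of which 2 were to the GATA motif and 1 to the CATCTG E-box. The IGSF21 window lay in an intron and held a GATA match near its start, with a TEAD match further on. The ZC3H12A window lay in a long non-coding RNA gene, the SATB1 window covered part of a coding exon and the intron beside it, and the SERTAD2 window was intergenic. A match of letters is a description of the window and does not show that a factor was bound.

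In DMSO and PB the lost regions carried weaker peaks than regions that kept theirs in all groups. Of the 799 regions, 702, 760, 618 and 751 had a peak in DMSO replicates 1 to 4, and 730, 749, 711 and 610 in PB replicates 1 to 4. In RA the counts were 59, 101, 92 and 107, and in PB+RA 66, 36, 228 and 96. As the rule demanded, DMSO and PB libraries were high and all 8 RA and PB+RA libraries low, with PB+RA replicate 3 the highest of the low ones. Altogether 237 regions had no peak in any RA or PB+RA library, and 65 of these had one in all 8 DMSO and PB libraries.

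**Figure D1:**
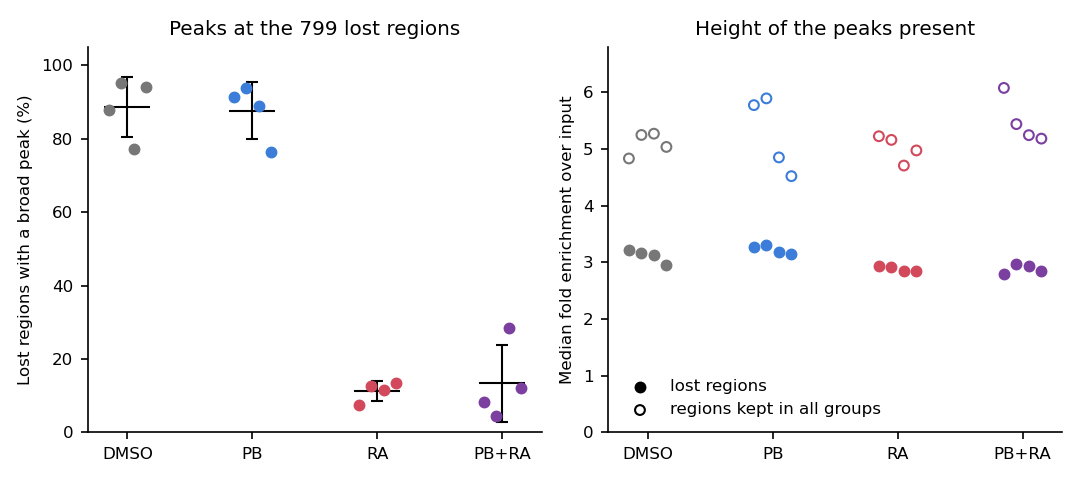
Left, the percentage of the 799 lost regions with a broad peak in each ChIP library (points), with bars for the mean and SD of each group (n = 4). Right, the median fold enrichment over input of the peaks present at lost regions (filled) and at regions kept in all groups (open), by library. DMSO and PB libraries lie between 76.3% and 95.1% and RA and PB+RA libraries between 4.51% and 28.5%, while in every library the peaks at lost regions are lower than those at kept regions.

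Where a lost region had a peak, its median fold enrichment over input was 3.11 ± 0.117 in DMSO (SD, n = 4 libraries) and 3.22 ± 0.0755 in PB (SD, n = 4). At the 32870 kept regions, defined by peaks in 3 or 4 libraries of every group, the same medians were 5.10 ± 0.205 in DMSO (SD, n = 4) and 5.26 ± 0.678 in PB (SD, n = 4). Lost-region peaks thus sat below kept-region peaks in each of the 8 libraries. The median −log10 q was 2.19 ± 0.0728 in DMSO (SD, n = 4) at lost regions, against 7.37 ± 1.18 (SD, n = 4) at kept regions. The few peaks remaining with RA were near the caller's limit, with a median −log10 q of 1.63 ± 0.0542 (SD, n = 4). When only peaks with a −log10 q of at least 5 were counted, 342 regions met the rule and just 3 of them were among the 799. At a minimum of 10, 137 regions met it and 0 were among the 799. Which regions count as lost therefore depends on the peak threshold.

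The depth of single libraries is unknown here, so the authors' normalised signal was examined alongside the peaks. It is given as a group mean log2 concentration (log2 of the normalised read count of the region), without values per library. The median over the lost regions was 5.52 in DMSO, 5.41 in PB, 4.37 in RA and 4.35 in PB+RA. The order places DMSO and PB together and RA and PB+RA together, which is the order the rule chose. In bulk chromatin, fewer cells carrying the mark and less mark per cell cannot be told apart.

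Per kilobase of region, the linear concentration at lost regions had a median of 27.1 in DMSO and 25.6 in PB, and of 11.7 in RA and 11.9 in PB+RA. Regions outside the set that had no peak in any library of a group had a median of 11.5 in DMSO, 11.9 in PB, 14.0 in RA and 11.0 in PB+RA. The level at lost regions with RA was close to that of regions in which no peak was found. The rule asked for few or no RA peaks, so this closeness follows in part from it. Kept regions stood at 46.4 per kilobase in DMSO and 45.1 in RA. All regions, with or without a peak, stood at 22.6 in DMSO and 23.6 in RA.

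The difference in concentration, RA minus DMSO, had a median of -1.19 over the lost regions on the log2 scale, against -0.01 over all regions. A difference of -1 or lower was found at 518 lost regions with RA (64.8%), where 7.24% of all regions had one. It was found at 497 lost regions for PB+RA minus DMSO (62.2%, 16.1% of all regions) and at 453 for PB+RA minus PB (56.7%, 5.31% of all regions). These 3 contrasts were used by the rule, so nothing is read from the counts. At 184 lost regions neither RA minus DMSO nor PB+RA minus PB reached -1, so a region could lose its called peak with a smaller difference in signal.

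**Figure D2:**
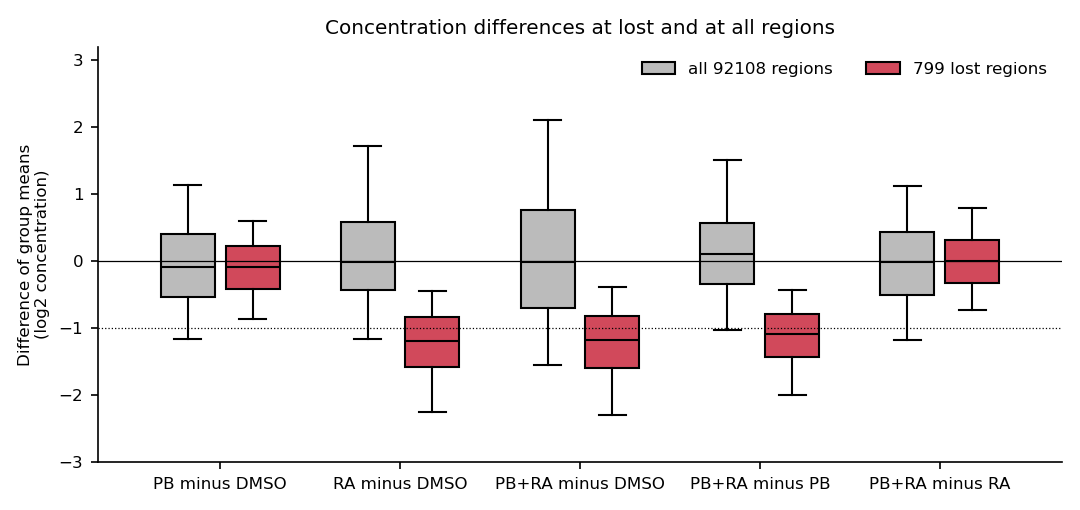
Differences between the authors' group mean log2 concentrations (vertical axis) for 5 contrasts, over all regions (grey) and the lost regions (red). Boxes show the quartiles and median, whiskers the 5th and 95th percentiles; the contrasts with RA on one side were used by the rule, which also asked for peaks in both DMSO and PB and few in both RA and PB+RA, so medians near 0 for PB minus DMSO (-0.09) and PB+RA minus RA (0.01) follow in part from it.

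One lost region had a difference above 0 with RA, in an intron of ADAMTS3 (chr4:73198385-73199863, 0.07), and 4 had one with PB+RA. At the ADAMTS3 region DMSO stood at 4.85 and RA at 4.92, although its peak was called in 3 DMSO, 3 PB and 1 RA library. At the edges of the rule, the 223 lost regions with 1 RA and 1 PB+RA peak had a median RA minus DMSO of -0.98. Regions just outside with 2 RA peaks (n = 334) had a median of -0.73, and those with 2 PB+RA peaks (n = 427) one of -1.07. The 65 regions with a peak in all 8 DMSO and PB libraries and in none of the other 8 had -1.60. The cut-off therefore divides a gradient. Of the 6671 regions with an RA minus DMSO difference of -1 or lower, 518 (7.76%) were lost regions, while 2070 (31.0%) kept their peaks in all groups.

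Among the 65 regions with the clearest peak pattern, the strongest losses lay mostly in introns and between genes, with 1 of 12 in a long non-coding RNA gene. From these 65 regions, 12 genes were named by the size of the RA minus DMSO difference, with the region assigned to the nearest protein-coding start site within 100 kb. Lost regions without that pattern were not ranked here. Some of them had larger differences than most of the 12, such as those at OXGR1 (-3.11) and ZNF275 (-3.10). CSPG4, which encodes the NG2 proteoglycan of pericytes and glial progenitors, came first. Its intronic region at chr15:75992604-75993867 had a concentration of 6.09 in DMSO, 4.67 in PB, 2.70 in RA and 2.93 in PB+RA, a difference of -3.39 with RA. A second CSPG4 region at chr15:75994491-75995134 had a difference of -2.88.

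IGSF21, an adhesion protein of inhibitory synapses, had a region at chr1:18463854-18467685 with concentrations of 6.97, 6.79, 3.92 and 4.79 in DMSO, PB, RA and PB+RA. Its fold enrichment over input was 3.64, 3.65, 4.02 and 3.28 in DMSO replicates 1 to 4 and 4.43, 4.71, 4.02 and 5.04 in PB, with no peak in any RA or PB+RA library. DMSO and PB overlapped there, since replicate 3 of both stood at 4.02. At SCN1A, a voltage-gated sodium channel of neurons, the region at chr2:166929263-166931652 covered a start site. It had 6.36 in DMSO, 5.85 in PB, 4.42 in RA and 3.65 in PB+RA, a difference of -1.95 with RA. The fold enrichment there ranged from 3.49 to 5.08 in DMSO and from 3.33 to 4.24 in PB, so the single-drug PB group overlapped DMSO.

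The RA minus DMSO differences of the other 9 genes ran from -2.90 to -1.96. They were OR8B8 (-2.90), an olfactory receptor gene, ZC3H12A (-2.87), encoding an RNase that degrades inflammatory transcripts, BOD1L2 (-2.62) and DENND4C (-2.59), a Rab exchange factor. MARCHF5 (-2.50), a mitochondrial ubiquitin ligase, CNGB3 (-2.20), a channel subunit of cone photoreceptors, and SERTAD2 (-2.19), a transcriptional co-regulator, followed. CA10 (-2.01), a secreted neurexin ligand, and SLC8A1 (-1.96), the sodium-calcium exchanger, completed the group. Of the 12 regions, 2 covered a start site, 1 lay 129 bases from one and 9 lay further out. Beyond the 100 kb limit, an intronic region of SPAG16 (chr2:214456381-214462439) had -3.07, and an intergenic one whose nearest gene was NRP1, a semaphorin receptor, had -2.89 (chr10:33924233-33928357). Those 2 were named for size after their values were seen.

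PB and DMSO were compared library by library. The rule demanded peaks in both groups, which keeps out regions where PB removed or added a peak. Just outside it, regions with 2 DMSO peaks (n = 384) had a median PB minus DMSO concentration difference of 0.34 and those with 2 PB peaks (n = 490) one of -0.42. The count called and the median at lost regions are therefore a description. Fold enrichment of the highest peak was compared between the 4 PB and 4 DMSO libraries with limma at the 31028 regions with a peak in all 8, of which 249 were lost regions. At an adjusted p under 0.05 (Benjamini-Hochberg over all regions tested), 4.6% of all regions were called. Among the 249 lost regions 2 were called, and both were the CSPG4 introns. The median log2 difference of the 249 was -0.01, with 120 above 0 and 129 below, and -0.03 over all regions tested. The median standard error of a lost region was 0.15.

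At the CSPG4 region starting at 75994491, fold enrichment was 9.33, 8.32, 6.25 and 8.46 in DMSO and 6.04, 5.27, 4.99 and 3.30 in PB. The groups did not overlap, and the peaks fell by 0.78 ± 0.17 (SE) on the log2 scale with PB (limma, Benjamini-Hochberg adjusted p = 0.0206). At the CSPG4 region starting at 75992604 the values were 7.87, 10.8, 6.88 and 8.39 in DMSO and 5.66, 5.05, 5.86 and 5.33 in PB. The groups again did not overlap, and the peaks fell by 0.65 ± 0.16 (SE) with PB (limma, adjusted p = 0.0382). Neither call held in every alternative: without centring the libraries, or without DMSO replicate 1, 2 or 4, no lost region was called (0 of 249). The call at 75994491 was also lost without PB replicate 4 (limma, adjusted p = 0.0520). The call at 75992604 was also lost without PB replicate 1, 2 or 3 (limma, adjusted p of 0.0532, 0.0613 and 0.0539), with the replicate number as a block (0.0598), after quantile normalisation (0.0584) and with a −log10 q of 5 in all 8 libraries (0.193). CSPG4 peaks were also taller in DMSO than those of the typical lost region, whose median fold enrichment was 3.11.

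The lost regions with the next smallest p values were not called. QKI, an RNA-binding splicing regulator, was the nearest gene of a region with a log2 difference of -0.41 (limma, adjusted p = 0.0869). After quantile normalisation that region was called (-0.47, limma, adjusted p = 0.0227). In the other direction, regions nearest to NUDT12, LRRTM4 and C4orf33 had 0.36, 0.40 and 0.38 (limma, adjusted p of 0.116, 0.123 and 0.151). By concentration, for which there is no test, 151 lost regions had a PB minus DMSO difference of -0.5 or lower (18.9%, 26.8% of all regions) and 69 had one of 0.5 or higher (8.64%, 21% of all regions).

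Both RA and PB+RA were held low by the rule, so the spread of their difference was narrowed by it and nothing is read from its size. The PB+RA minus RA difference had a median of 0.01, with quartiles of -0.32 and 0.32, against -0.01 over all regions. A difference of -0.5 or lower was found at 116 (14.5%, 24.9% of all regions) and one of 0.5 or higher at 115 (14.4%, 22.3% of all regions). Among the 65 regions of the clearest pattern, the 3 lowest differences were at ZFPM2 (-0.88), CRYBA4 (-0.86), a lens crystallin gene, and FAR2 (-0.80), a fatty acyl-CoA reductase gene. The 3 highest were at OR8B8 (1.17), BOD1L2 (1.16) and DENND4C (1.03). At those 3, PB+RA stood below DMSO, with differences of -1.73, -1.46 and -1.55, which follows largely from the peak pattern asked for.

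The lost regions were mostly distal. Of the 799, 35 (4.38%) lay within 3 kb of a protein-coding start site, against 21.6% of all regions and 40.7% of kept regions. A distance of over 100 kb was found for 282 (35.3%, 21.5% of all regions). Introns of protein-coding genes held 420, intergenic stretches 259, long non-coding RNA genes 99 and exons 21. Similar shares were seen at the 2867 regions gained with RA (a peak in at most 1 of 4 DMSO and PB libraries each and at least 3 of 4 RA and PB+RA libraries each), of which 6.73% lay within 3 kb. By contrast, 24.5% of the 1243 regions lost with PB (at least 3 of 4 DMSO and RA libraries, at most 1 of 4 PB and PB+RA libraries) did so. The distal character of the lost regions depended on the peak threshold. Among regions meeting the same rule at a minimum −log10 q of 5, 15.5% lay within 3 kb. At a minimum of 10 the share was 29.9%, above the 21.6% of all regions. These shares are counts of regions and carry no test.

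Base composition lay between those of the other sets. The median GC content was 45.2% at lost regions, 47.1% at all regions, 40.2% at regions gained with RA and 57.4% at regions lost with PB. A 300-base window held 3.52 CpG sites on average at lost regions and 7.46 at all regions. The median width was 1700 bases, close to the 1727 of all regions and under the 3822 of kept regions. Chromosome 10 had the highest share of lost regions, 69 of 4669 (1.48%), and chromosome 19 the lowest of the autosomes, 6 of 3458 (0.174%), against 0.867% overall.

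Some lost regions lay close together along the genome. Joined where they lay no more than 100 kb apart, the 799 formed 651 groups, of which 101 had at least 2 lost regions and together held 249 (31.2%). Groups with at least 4 numbered 10. The longest runs were 7 lost regions in GRID1, encoding a delta-type glutamate receptor of synapses, and 7 in ZFPM2, encoding FOG2, a cofactor that binds GATA factors.

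In the GRID1 run, 179 kb long on chromosome 10, 24 regions of all kinds were found. The 7 lost regions had RA minus DMSO differences from -1.35 to -0.73. Of the 17 others, 13 had a difference of -1 or lower with RA, 16 with PB+RA and 1 with PB, although 3 of them kept their peaks in all groups. The region with the greatest difference (-2.06) was one that was not lost, a broad domain whose peaks shortened with RA. In this stretch the lost regions were the smaller peaks around a larger domain that also lay lower.

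**Figure D3:**
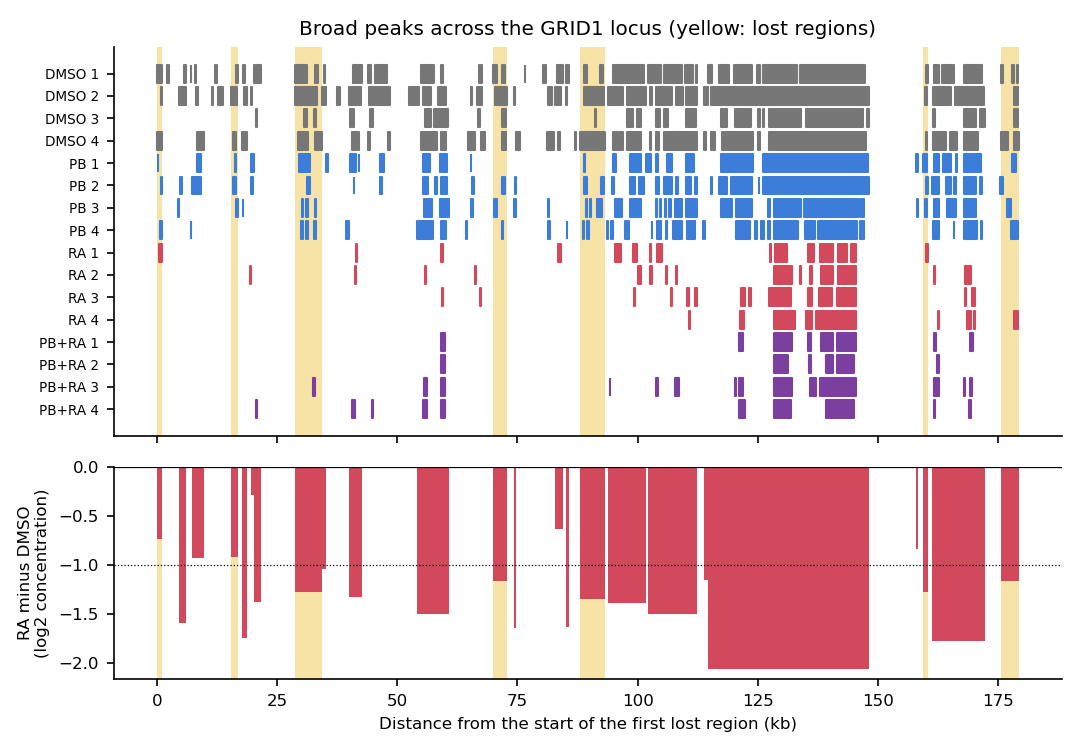
Top, broad peaks by ChIP library (16 in all) across the GRID1 run, by distance in kb from the start of the first lost region, with the 7 lost regions shaded yellow. Bottom, the RA minus DMSO difference in log2 concentration of each of the 24 regions (bar width, region width; dotted line, -1). All bars are below 0, and the tallest downward bar, -2.06, belongs to the widest domain, which still has peaks with RA.

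Regions beside the lost ones were counted in other runs too. In ZFPM2, 9 of the 10 other regions had a difference of -1 or lower with RA and all 10 with PB+RA, against 1 with PB. In a gene-poor stretch of chromosome 1 whose nearest gene was PTPRU, a receptor tyrosine phosphatase, there were 6 lost regions with differences from -2.46 to -1.96. All 7 others in that stretch had -1 or lower with RA and with PB+RA, and 4 had so with PB. In a stretch of chromosome 10 between 169964 and 263091 bases from the nearest GATA3 start site, 4 lost regions had -1.81, -1.18, -1.69 and -1.25. There 3 of 4 others had -1 or lower with RA, 2 with PB+RA and 0 with PB. Fewer of the others reached -1 in the BICC1 and PHYHIPL run (4 of 23) and in the IGSF21 run (0 of 2).

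Beyond the runs, the signal of other regions was graded by distance from a lost region. Regions under 10 kb away (n = 1242) had a median RA minus DMSO difference of -0.70, and 32.3% had -1 or lower. The median was -0.43 at 10 to 50 kb, -0.29 at 50 to 100 kb, -0.05 at 100 to 500 kb and 0.06 at 500 kb and over. PB+RA minus DMSO had the same grading, from -0.76 to 0.06, whereas PB minus DMSO stayed between -0.15 and -0.08. Among the neighbours under 10 kb away, the 476 kept regions had a median of -0.66 with RA, against -0.15 over all kept regions. Neighbouring regions share reads, copy number and base composition, so this is a description. With differences centred within classes of GC content, the median under 10 kb was -0.80. A grading by distance was not particular to the lost regions. Around regions lost with PB, medians under 10 kb and at 500 kb and over were -0.29 and 0.12 for RA minus DMSO. They were -0.81 and 0.27 for PB+RA minus DMSO, and -0.63 and 0.11 for PB minus DMSO. With GC centring, the RA minus DMSO median under 10 kb from a region lost with PB was -0.12.

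**Figure D4:**
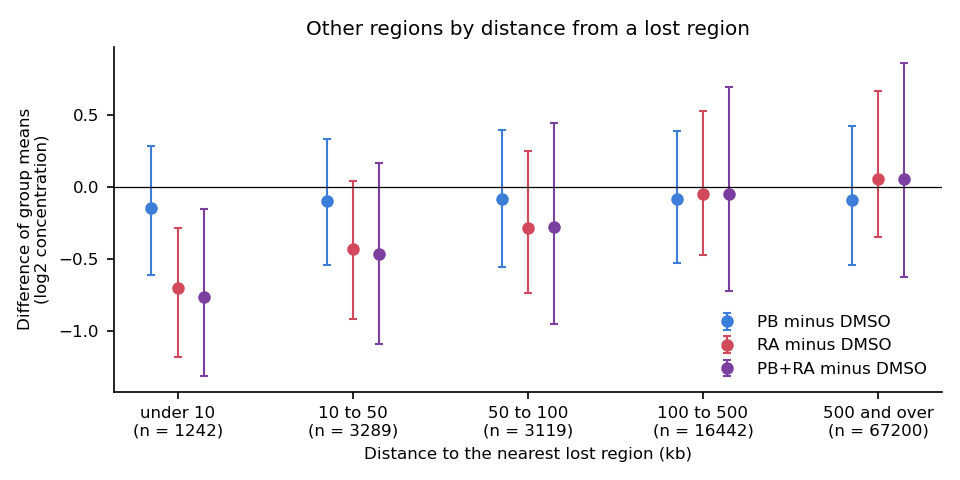
Median difference in log2 concentration from DMSO (points, with quartiles as bars) of regions that were not lost, by distance to the nearest lost region in kb, for PB, RA and PB+RA. RA and PB+RA medians climb from -0.70 and -0.76 under 10 kb to 0.06 at 500 kb and over, while PB medians stay between -0.15 and -0.08.

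Within 100 kb of a protein-coding start site, 517 lost regions were assigned to 433 genes, or 2.89% of the 15005 genes with a region. Of these, 374 genes had 1, 45 had 2 and 14 had at least 3. The 8 genes with the most were MBNL2 (7 of its 24 regions), ZFPM2 (5 of 25), ARHGEF28 (5 of 38), IGSF21 (4 of 10), HS6ST1 (4 of 16), ELMO1 (4 of 49), LDLRAD3 (3 of 8) and HS3ST3A1 (3 of 11). The last pair was taken from several genes with 3 by the share of their regions lost. The nearest gene need not be the one a region acts on.

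MBNL2 encodes an RNA-binding regulator of alternative splicing in neurons. Its 7 lost regions had RA minus DMSO differences from -1.81 to -0.79, and the lowest, at chr13:97900419-97903856, had 7.53 in DMSO, 7.01 in PB, 5.72 in RA and 5.49 in PB+RA. All 24 MBNL2 regions had a median of -0.81 with RA and -0.07 with PB. A pair of the genes, HS6ST1 and HS3ST3A1, encode sulfotransferases that modify heparan sulfate, the co-receptor of many growth factors. HS6ST1 lost regions ran from -2.12 to -1.52 with RA and those of HS3ST3A1 from -1.75 to -0.77. They were lower with PB alone too, with PB minus DMSO from -1.14 to -0.64 at HS6ST1 and from -0.50 to -0.07 at HS3ST3A1. ARHGEF28 and ELMO1 take part in the activation of small GTPases of the cytoskeleton. Their lost regions ran from -1.40 to -0.72 and from -1.66 to -0.79.

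The CRC genes were examined next. Of 21 ADRN circuit genes with a region, 4 had a lost region, and these were 5 of the list's 269 regions (1.86%, 0.715% of all regions assigned to a gene). The list's regions had a median RA minus DMSO of -0.35. List genes have more regions than the average gene (12.8 against 4.82), which raises the chance of holding a lost one.

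ISL1, a LIM homeodomain factor of sympathetic neurons, had 1 lost region, at chr5:50702350-50704513, whose window is printed above. Its concentration was 6.24 in DMSO, 5.95 in PB, 5.37 in RA and 5.05 in PB+RA. Peaks were called in DMSO replicates 1, 2 and 3 at 3.21, 3.23 and 3.52 and in PB replicates 1, 2 and 4 at 2.59, 3.004 and 3.29, with 1 in RA replicate 3 at 2.43. EYA1, a co-activator phosphatase, had 2 intronic lost regions on chromosome 8, with RA minus DMSO differences of -1.56 and -1.27. SATB1, a chromatin organiser, had 1 at an exon (-1.16), and LMO1, a LIM-only co-regulator and neuroblastoma risk gene, had 1 between genes (-0.88). With PB+RA the LMO1 region stood at -1.56 from DMSO. All 5 of these regions were lower in both RA groups, by moderate amounts, which follows largely from the rule. None of them covered a start site.

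Signalling and developmental lists held a few each. Notch, Hedgehog and Wnt genes had 5 lost regions at 3 of 27 genes (PTCH1, GLI2 and TCF7L2), the highest share of regions (2.27%) of any list with more than 1. GLI2, the activator at the end of the Hedgehog pathway, had 3, with differences of -1.26, -1.80 and -1.45 with RA and -1.99, -2.45 and -1.90 with PB+RA. Over its run of 19 regions, 13 of the 16 others had -1 or lower with RA and all 16 with PB+RA, against 6 with PB. PB minus DMSO was -0.50, -0.58 and -0.91 at the 3, and PB+RA held the lowest values there. Whether the effects of the drugs added up was not tested. Growth factor receptor and MAPK feedback genes had 3 at 3 of 23 (1.08% of regions, 0.715% of all assigned regions), led by FGFR2 (-2.17), a fibroblast growth factor receptor. The ITGA9 gene, an integrin subunit, had all 3 of the extracellular matrix and integrin list (1 of 22 genes, 1.44% of regions), at -0.996, -1.45 and -1.28 with RA.

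Each neuronal list held 1 to 4 lost regions. Lost regions made up 1.53% of the regions of the synaptic vesicle and release list, 1.61% of the potassium channel list and 1.33% of the axon and neurite list, against 0.715% of all assigned regions. They made up 0.366% of the postsynaptic, 0.304% of the axon guidance, 0.758% of the neuronal transcription factor and 0.552% of the catecholamine and sympathetic list. Synaptic vesicle and release genes had 4 lost regions at 3 of 30 genes, with the RIMS2 active zone protein lowest at -1.62. Potassium channels had 4 at 2 of 22 (KCND3 lowest at -1.82), axon and neurite genes 4 at 3 of 22 (NCAM1 lowest at -1.11), postsynaptic genes 1 of 24 (GRIK3, -1.79) and axon guidance genes 1 of 29 (SEMA6A, -1.59). Neuronal transcription factors had 1 of 21 (EBF3, -1.37), and catecholamine and sympathetic genes 1 of 20, at ALK (-1.74), the receptor kinase mutated in some neuroblastomas. Over all regions of the postsynaptic list the median RA minus DMSO was 0.39 and over the axon and neurite list 0.30.

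The retinoid pathway list had 1 lost region at 1 of 18 genes, in an intron of MEIS1 (-0.63, 0.629% of the list's regions), and all regions of that list had a median of 0.63. Cell cycle genes had 1 of 25 (MCM5, -0.70, 0.952% of regions), mesenchymal genes 1 of 22 with 2 regions (TEAD1, lowest -1.11, 1.12% of regions), and neural crest and Schwann genes 1 of 17 (SOX2, -1.002, 1.27% of regions), against 0.715% of all assigned regions. Kidney and gland genes (19), housekeeping genes (16) and endothelial genes (8) had none, so 0% of their regions. Immune genes had 1 of 9, a region 2374 bases from a CD3E start site (-1.68, 4.17% of the list's 24 regions), although none of the CD3E, PTPRC and LYZ start sites lay in a region. The part of other cell types in that region was not tested.

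Motif shares were set beside those of all regions of the table, in windows of the same length. The GATA motif (AGATAA) was found in 175 of 799 lost windows (21.9%, 95% Wilson interval 19.2% to 24.9%), against 16.05% of all windows and 13.9% of kept windows. SOX (ACAATGG) was found in 5.01% (3.70% to 6.75%) against 3.34% of all, and NFI (TGGCNNNNNGCCA) in 2.25% (1.43% to 3.53%) against 1.33%. Shares were lower than over all windows for some motifs rich in G and C. The SP and KLF GC box (GGGCGG) was in 3.88% (2.75% to 5.45%) against 16.4%, ETS (CCGGAA) in 2.75% against 6.25% and TFAP2 (GCCNNNGGC) in 11.3% against 15.8%. At regions gained with RA the shares were 21.2% for GATA, 3.87% for the GC box and 2.41% for ETS. The shares of these motifs were thus not particular to the lost regions. SOX was in 3.84% of gained windows, NFI in 1.15% and TFAP2 in 5.13%. Shares of the GC box, ETS and TFAP2 motifs were not compared within classes of GC content. Intervals cover counting error alone, and windows of one locus are not independent.

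GATA shares depend on base composition. Among windows beyond 3 kb of a start site in regions of under 40% GC, the share was 27.5% at lost and 28.6% at all regions, and at 40% to 45% it was 23.3% and 22.3%. At 45% to 50% GC it was 21.0% against 16.5%, and at 50% and over 14.8% against 7.97%. The difference in share was thus larger in the GC-rich classes, with 214 and 176 lost regions, than in the GC-poor ones.

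The remaining motifs differed little. CATCTG, the E-box of HAND and TWIST factors, was in 23.4% of lost and 22.4% of all windows, CACGTG, the MYCN and MAX E-box, in 4.51% and 4.77%, and the homeodomain core TAATTA in 7.01% and 7.18%. The AP-1 motif TGANTCA was in 9.14% and 10.8%, and in 16.1% at regions gained with RA. TEAD (GGAATG) was in 16.9% and 15.8%, and the forkhead motif TGTTTAC in 4.38% and 3.72%. The nuclear receptor half-site AGGTCA was in 17.1% and 18.4%. A direct repeat with 5 bases between (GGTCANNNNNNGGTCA), one form of the retinoic acid response element, was found in 0 of 799 lost windows, which allows a share of up to 0.375% by the limit of 3 counts and 0.478% by the Wilson interval, and in 0.108% of all windows. Each motif was searched by itself on both strands, and the half-site can lie within the direct repeat.

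**Figure D5:**
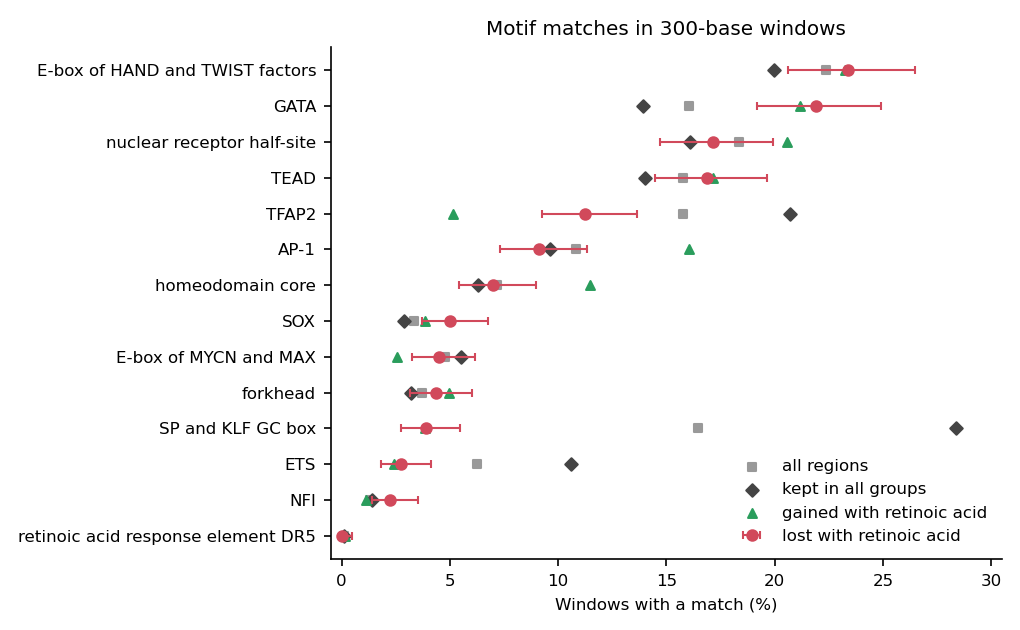
Percentage of 300-base windows with at least 1 match to each of 14 motifs at lost regions (red, with 95% Wilson intervals), all regions (grey squares), kept regions (black diamonds) and regions gained with RA (green triangles). GATA stands at 21.9% of lost, 16.05% of all and 21.2% of gained windows, and the SP and KLF GC box at 3.88%, 16.4% and 3.87%.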

How the data were processed

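H3K27ac ChIP-seq of SK-N-BE(2)C cells was used, with 16 ChIP libraries in 4 groups taken from the sample titles. Of 16 input libraries no values were taken. By the study's methods, the authors trimmed reads with fastp or another trimmer, aligned them to hg19 and called broad peaks against input. The submitters' processing notes name fastp 0.12.4, Bowtie2 2.4.4 (the study's list of tools gives another Bowtie2 version) and MACS2 2.2.7.1. Each deposited peak carries a ratio (fold enrichment over input) and a −log10 q, made by the authors. The deposited comparison tables (DiffBind 3.4) hold the authors' mean log2 concentration of each group, normalised before deposit, which was used, and their log2 folds, p-values and FDR, which were not. Such normalisation would hide a change of total H3K27ac, and peak calls depend on depth, which is unknown here, so no counting interval is given for a peak.

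Presence of a peak was taken at 1 base of overlap with a region. Region coordinates are as deposited, on hg19, and windows are counted from 1. Genes came from GENCODE release 44 lifted to GRCh37, of which 92092 regions had a sequence, and each region went to its nearest protein-coding start site. PB and DMSO fold enrichments were compared in log2 by limma 3.58.1 (R 4.3.3) with libraries centred on their median, no block and Benjamini-Hochberg adjustment over all regions tested. The script was tested on simulated data. P-values measure the spread between passages of 1 line. Alternatives covered overlap, peak threshold, libraries required, single libraries, centring, GC content (10 classes), pseudocount, distance and window.

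The members, the 19 gene lists and the 14 motifs were chosen with earlier results of these data known. Some genes, motifs and a sequence are not reported here, and windows on chromosome 8, those of CNGB3 and EYA1 with more matches among them, were not eligible for printing. Genes were named by rule: the 12 with the largest RA minus DMSO difference among regions with the clearest peak pattern, the 8 with the most lost regions, in each list those with at least 3 or otherwise the lowest (every one in the adrenergic list), the 3 lowest and 3 highest for PB+RA minus RA, the 3 smallest p in each direction, and those above 0 with RA. Runs with at least 4 lost regions were looked at after their values were seen.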

Additional observations from a re-analysis of the deposited data

Results flagged for a closer look

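Among 50 groups of 4 libraries examined at the lost regions and their named members, 3 held a value far from the other 3, where about 1 in 20 groups is flagged by chance. The median −log10 q of the peaks at lost regions was 1.66 in PB+RA replicate 3, and between 1.57 and 1.58 in the other 3 PB+RA libraries. That library also had a peak at 228 lost regions. At the region nearest to C4orf33, fold enrichment was 2.77 in DMSO replicate 4 and between 3.36 and 3.47 in the other DMSO libraries. At the region nearest to QKI it was 4.03 in DMSO replicate 2 and between 3.72 and 3.76 in the others.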

How the results depend on the processing

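The number of lost regions (799) depended on the peak threshold and on the libraries required. It was 342 at a −log10 q of 5, 137 at 10, 65 with all 4 and none required, and 2195 with at least 2 of 4 DMSO and PB libraries. Asking for a peak over at least 50% of the region gave 1152, of which 43 were among the 799. Leaving out 1 library at a time gave 881 to 1122, and the highest count was without PB+RA replicate 3. Where a DMSO or PB library was left out, at least 2 peaks in that group sufficed. At most 1 peak was still allowed in each of the RA and PB+RA groups. All of the 799 meet these looser demands, so their inclusion every time was fixed in advance. In every one of these alternative sets the median RA minus DMSO difference was at or below -0.91. Each set was chosen for few RA peaks, so nothing is read from that. Other traits moved with the peak threshold. The share within 3 kb of a start site was 15.5% at a −log10 q of 5 and 29.9% at 10, in place of 4.38%. Median GC content was 48.7% and 52.0% in place of 45.2%. The GC box share was 10.5% and 14.6% in place of 3.88%.

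For PB minus DMSO, 30 lost regions differed by at least 1 in place of 220 by at least 0.5. The median PB+RA minus RA difference was -0.10 after centring within GC classes. Lost regions lay at 114 genes within 10 kb, and 16 lay within 1 kb of a start site. At least 1 motif was held by 99.0% of windows of 1000 bases and by 79.0% of windows at the centre of the region, in place of 75.3%. Over all regions these shares were 99.5% and 79.6%, in place of 79.8%. The RA and PB+RA counts at -1 stayed within 1.5 times under each alternative.

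In the limma comparison of PB with DMSO, 1426 regions were called, 24 without centring the libraries and 720 of 13230 with a −log10 q of 5 in all 8. Leaving out 1 library gave 375 to 2412 (375 without DMSO replicate 4, 2412 without PB replicate 2). Lost regions called numbered 0 of 249 without centring and 0 to 2 with 1 library left out. At a −log10 q of 5 in all 8, 1 lost region could be tested and 0 were called, with 0 at an unadjusted p under 0.05. Without centring, 10 of the 249 had an unadjusted p under 0.05 against 4499 of all 31028, and in the reported fit 12 against 7301. With the replicate number as a block, 1348 regions and 1 lost region were called. Quantile normalisation called 2 lost regions, QKI in place of a CSPG4 region. Deviations of same-numbered DMSO and PB libraries from their group means had correlations of -0.13, 0.04, -0.09 and 0.19. The sample titles do not say whether same-numbered libraries shared a passage, and these correlations cannot settle it.

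The share of lost windows with GATA was 26.8% at the centre of the region, against 18.8% of all windows and 28.0% of windows gained with RA. Depth is unknown here and limits every statement on absent peaks. The neighbour medians with GC centring were chosen after seeing the data.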
